A study of Homo sapiens with 6 samples.

Results

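The pentose phosphate pathway was followed through 7 genes of the 19923 protein-coding genes in the count tables: PGD and PGLS of its oxidative branch, RPIA, RPE, TKT and TALDO1 of its non-oxidative branch, and TKTL1, a relative of TKT. TKTL1 was chosen by its measured rise in this same comparison, so its change is described without a test. The other 6 were taken for their place in the pathway, with earlier results of these data known. All 7 were found in the tables and passed the filter on low counts.

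RNA-seq had been done on Kelly cells, a human neuroblastoma cell line with MYCN amplification that the labels give as WT, in 6 libraries. Cells were transfected with a control siRNA (siControl, 3 libraries) or an siRNA against METTL3 (siMETTL3, 3 libraries), both with Lipofectamine RNAiMAX, and were collected after 72 hours. Whether more than 1 siRNA sequence was used is not given in the sources used here. METTL3 is the catalytic subunit of the enzyme that writes N6-methyladenosine (m6A) into mRNA. The single comparison, siMETTL3 against siControl, asks how the transcriptome differs when METTL3 is reduced. Poly(A) RNA was sequenced, and m6A itself is not in these files. The file headers call all 6 libraries SAC-input and name the siMETTL3 libraries siMettl3B, and the labels do not explain these names.

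The pentose phosphate pathway branches from glycolysis at glucose 6-phosphate. Its oxidative branch reduces NADP+ to NADPH, which feeds lipid synthesis and antioxidant defence, and releases ribulose 5-phosphate. Its non-oxidative branch interconverts sugar phosphates, so that ribose 5-phosphate can be drawn off for nucleotide synthesis or carbon can return to glycolysis. Transketolase, which needs thiamine diphosphate, and transaldolase carry out these exchanges. TKTL1 encodes a transketolase-like protein known for expression in the testis and in some tumours.

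Total counts ranged from 15430000 to 21565013 per library. Levels are given in CPM, counts scaled to a common library size, as mean ± SD with n = 3. METTL3 was 54.2 ± 1.80 CPM in siControl and 33.04 ± 1.27 CPM in siMETTL3, so 61.02% of the control level remained (log2 fold change -0.71, standard error (SE) 0.0696, FDR 4.68e-06). The METTL3 span overlaps that of TOX4. FDR is the Benjamini-Hochberg adjusted p-value of edgeR's quasi-likelihood test over all 15311 genes tested, with a threshold of 0.05. The labels do not say whether the libraries of a group came from separate cultures, so the p-values measure only the spread between these libraries. The 10 noradrenergic neuroblastoma markers were all present and summed to 6556 to 7037 CPM in siControl and 9440 to 10045 CPM in siMETTL3. The part of this difference in the results on the pathway was not tested. All 5 leukocyte markers stayed below 1 CPM in every library. Of 7 fibroblast markers 4 stayed below 1 CPM, while PDGFRB stood at 84.8 ± 7.27 CPM in siControl and 82.8 ± 3.51 CPM in siMETTL3. COL1A1 was higher, at 2.96 ± 1.27 and 5.26 ± 0.471 CPM (log2 fold change 0.86, FDR 0.0200), and COL3A1 measured 2.52 ± 0.308 and 1.62 ± 0.295 CPM (-0.64, FDR 0.0629). The part of these markers in the results on the pathway was not tested either. Of the 5 epithelial markers 3 stayed below 1 CPM, and the list summed to between 5.79 and 8.36 CPM.

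TKTL1 was low in the control cells and several-fold more abundant after METTL3 siRNA, while PGD and TALDO1 were lower and the other pathway members showed no called change. Of the 6 members other than TKTL1, 2 were lower and 0 were higher (edgeR FDR under 0.05). Across all tested genes 37.8% were called, 18.6% higher and 19.2% lower, so 2 of 6 (33.3%) is close to the share over all genes. The values of 3 of the 6 did not overlap between the groups, which is near the 49.9% of all tested genes in either direction. All 3 were lower, where 25.1% of all tested genes were lower without overlap. The median log2 fold change was -0.09 over these 6 members and -0.0021 over all tested genes. RNA of whole cultures was measured, so fewer cells that express a gene and less of its RNA per cell cannot be told apart.

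**Figure D1:**
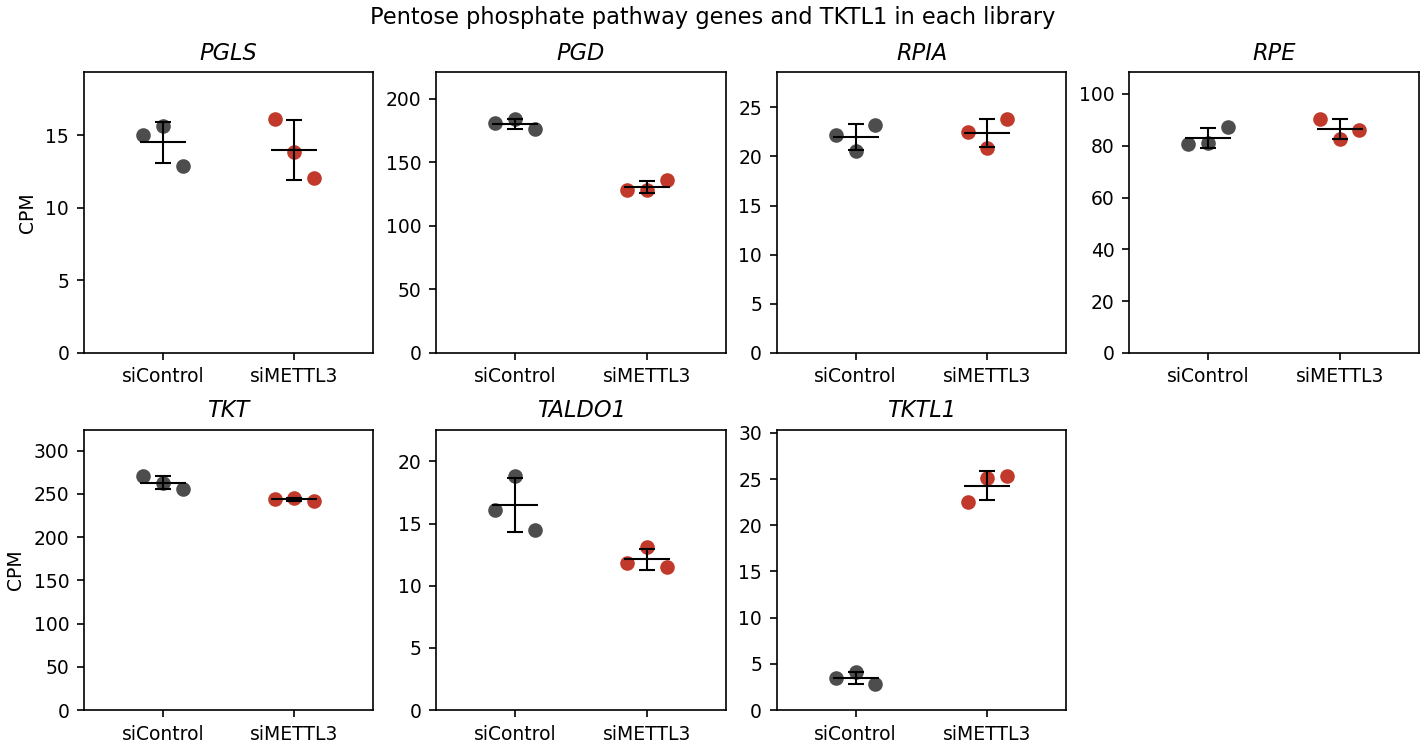
CPM of the 7 genes (vertical axes, each from 0) in the 3 siControl (grey) and 3 siMETTL3 (red) libraries; points are libraries, horizontal ticks the group means and bars the SD. TKTL1 lies between 2.85 and 4.15 CPM in siControl and between 22.5 and 25.3 CPM in siMETTL3, and PGD, TALDO1 and TKT lie lower in every siMETTL3 library than in any siControl library.

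In the oxidative branch, PGD encodes 6-phosphogluconate dehydrogenase, which makes the second NADPH of the pathway. It measured 181, 184 and 176 CPM in the siControl libraries and 128, 128 and 136 CPM in the siMETTL3 libraries. The groups did not overlap, which was so, in either direction, for 49.9% of all tested genes. PGD fell by 27.4% (log2 fold change -0.46, SE 0.0550, FDR 2.52e-05), and its log2 fold change stayed between -0.49 and -0.45 when any 1 library was left out. PGLS, the lactonase between the dehydrogenase steps, measured 15.02, 15.6 and 12.9 CPM in siControl and 16.1, 13.8 and 12.03 CPM in siMETTL3. Its groups overlapped, and the log2 fold change of -0.06 (SE 0.125, FDR 0.736) was smaller than its error.

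H6PD, a dehydrogenase of the endoplasmic reticulum, was followed as a further gene of the oxidative branch. H6PD measured 6.31, 4 and 3.78 CPM in siControl and 6.37, 6.34 and 6.82 CPM in siMETTL3, where the lowest value lay just above the highest of siControl. Its log2 fold change of 0.45 (SE 0.192, FDR 0.0793) passed the threshold only without siControl replicate 1, the highest of its control values (0.74, FDR 0.00398; range over all alternatives 0.00398 to 0.268).

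In the non-oxidative branch, RPIA and RPE, which turn ribulose 5-phosphate into ribose 5-phosphate and xylulose 5-phosphate, showed no called change. RPIA measured 22.2, 20.5 and 23.2 CPM in siControl and 22.5, 20.9 and 23.8 CPM in siMETTL3 (log2 fold change 0.03, SE 0.0921, FDR 0.831). RPE measured 80.5, 80.98 and 87.4 CPM in siControl and 90.3, 82.6 and 85.9 CPM in siMETTL3 (log2 fold change 0.06, SE 0.0622, FDR 0.501). Both genes overlapped between the groups. RPE may share reads with other features, which the counts do not resolve. Of the 50-base windows of its canonical transcript, 12.7% also occur in RPEL1, a copy with 1 exon. The RPE span overlaps KANSL1L by 840 bases. RPEL1 stood at 2.18 ± 0.322 CPM in siControl and 2.19 ± 0.724 CPM in siMETTL3 (FDR 0.996).

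TALDO1, transaldolase, measured 16.1, 18.8 and 14.5 CPM in siControl and 11.8, 13.1 and 11.5 CPM in siMETTL3. The highest siMETTL3 value lay below the lowest siControl value. TALDO1 fell by 26.7% (log2 fold change -0.45, SE 0.118, FDR 0.00873). The call rested on siControl replicate 2, the highest of its values: without it the log2 fold change was -0.34 (FDR 0.0602; range over all alternatives 0.000620 to 0.0602), and 1 member, PGD, was then called.

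TKT, transketolase, was the most abundant member and measured 270.4, 263 and 256 CPM in siControl and 244, 245 and 242 CPM in siMETTL3. Although the groups did not overlap, the difference was small (log2 fold change -0.11, SE 0.0525) and was not past the threshold (FDR 0.116). Without siControl replicate 3 it was (log2 fold change -0.13, FDR 0.0322; range over all alternatives 0.0322 to 0.251), which would make 3 of 6 members lower. Sedoheptulokinase (SHPK), which makes the sedoheptulose 7-phosphate shared by both exchange enzymes, and ribokinase (RBKS) gave log2 fold changes of -0.15 (FDR 0.186) and 0.27 (FDR 0.0765). Both of their spans overlap other genes.

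**Figure D2:**
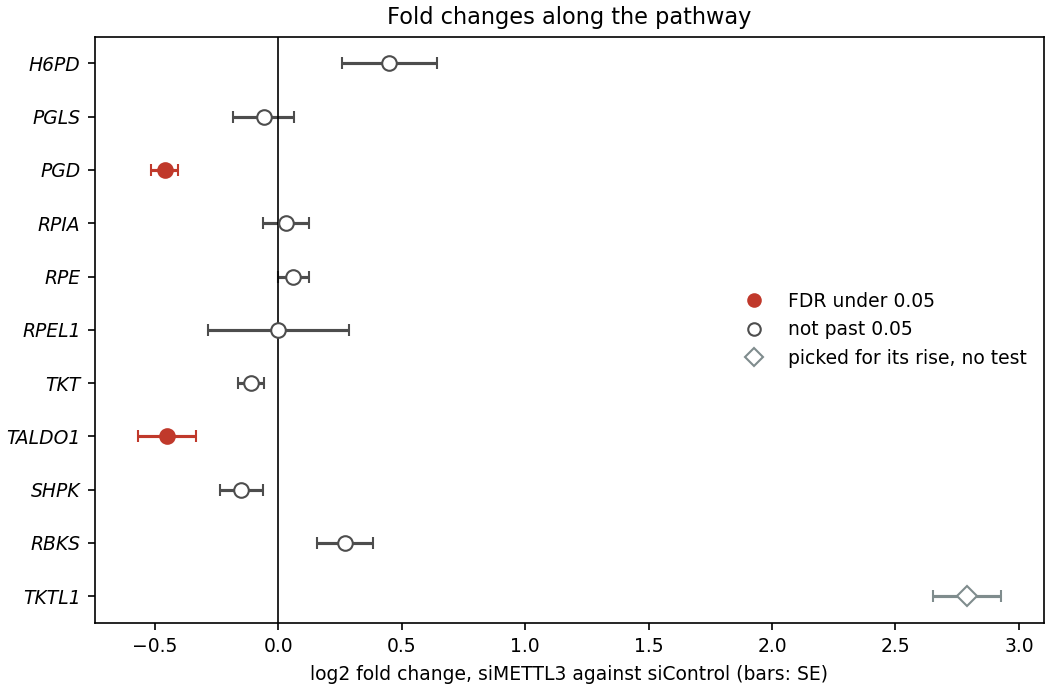
Log2 fold change of siMETTL3 against siControl (horizontal axis) for genes of the pathway, in pathway order with TKTL1 last; bars are the SE, filled points are past an FDR of 0.05, and the open diamond is TKTL1, which was chosen for its rise. PGD and TALDO1 lie at -0.46 and -0.45, and TKTL1 lies at 2.79.

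TKTL1 (GRCh38 chromosome X, 154295795 to 154330350, plus strand, 13 exons in its canonical transcript) had 74, 83 and 43 counts in the siControl libraries and 464, 546 and 520 counts in the siMETTL3 libraries. These are 3.43, 4.15 and 2.85 CPM against 22.5, 25.1 and 25.3 CPM. The groups lay far apart, with each group's libraries close together. The mean went from 3.48 ± 0.651 to 24.3 ± 1.54 CPM, which is 6.90-fold or 2.79 (SE 0.136) on the log2 scale. This value chose the gene and is given as a description: among the 11764 genes whose log2 CPM averaged 3 or more, it was the fourth largest rise. Among all 15311 tested genes ranked by mean CPM, TKTL1 stood at place 12820 in siControl and at place 8882 in siMETTL3.

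The share of TKTL1 among the transketolase counts restates its rise beside the level of TKT, and is a description of the values that chose the gene. TKTL1 gave 1.25% (95% Wilson interval 0.999 to 1.57), 1.55% (1.25 to 1.92) and 1.10% (0.819 to 1.48) of the TKT, TKTL1 and TKTL2 counts in the siControl libraries. In the siMETTL3 libraries it gave 8.45% (7.74 to 9.22), 9.27% (8.56 to 10.04) and 9.46% (8.71 to 10.3). The intervals cover counting error only. TKTL2, another relative, had 0 counts in every library, which allows at most 0.138 to 0.199 CPM (3 counts) in a library. TKTL1 and TKT share no 50-base window of their canonical transcripts, so reads of that length would not be identical between them.

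**Figure D3:**
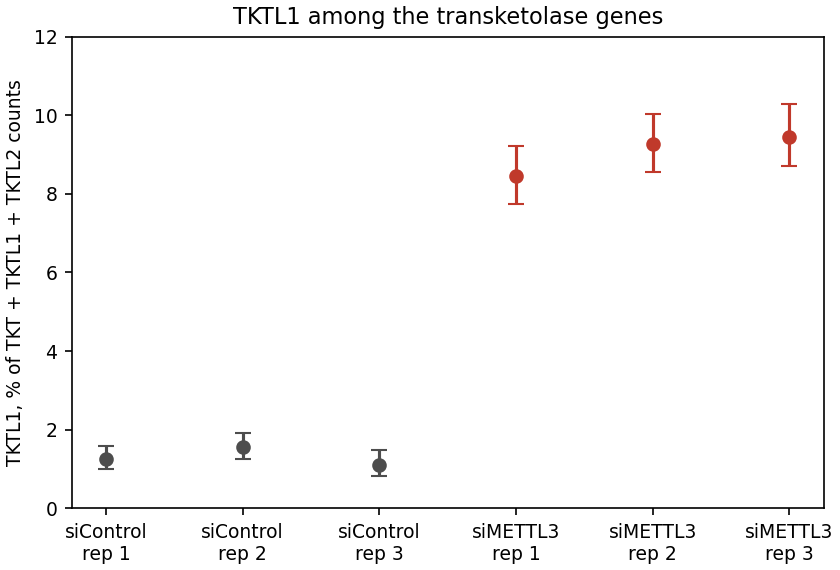
TKTL1 counts as a percentage of the TKT, TKTL1 and TKTL2 counts (vertical axis) in each library; bars are 95% Wilson intervals for counting error. All siControl points lie from 1.10% to 1.55%, and all siMETTL3 points from 8.45% to 9.46%.

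Per kilobase of canonical transcript, the levels of the genes can be set side by side. In siControl, TKT stood highest at 87.9 ± 2.36 CPM per kb, followed by PGD at 79.5 ± 1.80 and RPE at 26.1 ± 1.21, and the ranges of these 3 did not overlap. PGLS (14.4 ± 1.39), TALDO1 (13.7 ± 1.78) and RPIA (12.1 ± 0.769 CPM per kb) came next, and the range of each overlapped that of its neighbour in the order. TKTL1 was lowest at 1.38 ± 0.259 CPM per kb, so that TKT stood 63.7 times above it. In siMETTL3, TKTL1 reached 9.66 ± 0.610 CPM per kb, and its range of 8.95 to 10.1 overlapped that of TALDO1, 9.58 to 10.9. TKT then stood 8.43 times above TKTL1. The sum of TKT and TKTL1 was 89.3 ± 2.48 CPM per kb in siControl and 91.1 ± 0.710 in siMETTL3, and the groups overlapped. Counts cover introns too, so the order depends on the length used: per kilobase of gene span, TKTL1 (0.704 ± 0.0445 CPM per kb) stood above RPIA (0.378 ± 0.0238) in siMETTL3. On that length the siControl ranges of TKT (8.18 to 8.63 CPM per kb) and PGD (8.04 to 8.41) overlapped.

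The start of TKTL1 lies against that of TEX28, a testis-expressed gene on the other strand. Their spans share 59 bases, and an annotated TEX28 exon covers the first bases of TKTL1. TEX28 had 5, 2 and 0 counts in siControl and 21, 34 and 25 counts in siMETTL3, so it was higher in every siMETTL3 library, at a level of 1.27 ± 0.274 CPM. The counting used no strand and gave a read in the shared bases to both genes, so the TEX28 counts cannot be told apart from reads of the first TKTL1 exon. Taking every TEX28 count away from TKTL1 left 69, 81 and 43 counts against 443, 512 and 495, a log2 ratio of 2.77; this subtraction was chosen after the data were seen.

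The RefSeq promoter windows of both genes (GRCh38.p14, 250 bases before to 50 after the start) are shown because they lie close together and both counts were higher. The TEX28 window belongs to a RefSeq start inside the TEX28 span, not to the end of the span that overlaps TKTL1. In the TKTL1 window, chrX:154295545-154295844 on the plus strand, capitals mark the 50 transcribed bases of TKTL1. The whole of this window lies inside the TEX28 span. In the TEX28 window, chrX:154295162-154295461 on the minus strand, capitals mark CACGTG, the E-box letters that MYC family proteins are known to recognise.
TKTL1: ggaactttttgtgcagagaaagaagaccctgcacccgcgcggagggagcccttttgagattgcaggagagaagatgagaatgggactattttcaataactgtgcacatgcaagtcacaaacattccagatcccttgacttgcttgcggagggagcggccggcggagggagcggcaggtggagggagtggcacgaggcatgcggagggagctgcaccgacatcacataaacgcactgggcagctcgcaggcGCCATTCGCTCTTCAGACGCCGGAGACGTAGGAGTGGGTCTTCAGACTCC
TEX28: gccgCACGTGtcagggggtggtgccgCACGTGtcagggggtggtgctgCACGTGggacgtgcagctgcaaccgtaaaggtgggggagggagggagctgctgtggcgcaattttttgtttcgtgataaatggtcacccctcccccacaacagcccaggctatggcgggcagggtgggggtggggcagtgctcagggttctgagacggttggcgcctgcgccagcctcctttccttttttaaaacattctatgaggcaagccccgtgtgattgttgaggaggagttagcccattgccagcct
CACGTG, which reads the same on both strands, occurs 3 times in the TEX28 window and 0 times in the TKTL1 window. These matches lie 338, 360 and 382 bases before the TKTL1 start. The letters between them are nearly the same, so the 3 matches belong to a repeated stretch and are not separate occurrences. Of 35116 RefSeq promoter windows of this length, 7.26% hold the letters at least once and 0.094% at least 3 times. The windows of TKT, TALDO1, PGD, PGLS, RPIA and RPE hold none, as does that of TKTL1 itself. For those other genes no window of a neighbouring gene was searched. The matches near TKTL1 therefore come from a wider search and cannot be set against the other members. The letters TGACNNNGC, the core of the antioxidant response element, occur on either strand in the windows of PGD and RPE, once each, and in 13.3% of all windows. The TKTL1 window holds 18 CG pairs, against a median of 14 over all windows, and that of TALDO1 holds 44. RefSeq has a second TKTL1 window further into the gene, with 8 CG pairs and 0 CACGTG. A match is a description of the letters and not a bound site.

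GGACT is among the letter strings that the m6A writer prefers, and its matches were counted in the canonical transcript of each gene. It occurs 3 times in TKTL1, 4 times in PGD, 2 times in TKT, PGLS and RPIA, and once in TALDO1 and RPE. Of the canonical transcripts of 14591 tested genes, 91.3% hold at least 1 match, with a median of 0.929 per kb. PGLS, which showed no called change, holds the most per kb of the 7 genes (1.98), followed by PGD (1.76), TKTL1 (1.19), RPIA (1.10), TALDO1 (0.834), TKT (0.668) and RPE (0.314). The match nearest to the stop codon is shown for the member that was picked for its rise, for both members that fell and for TKT, with GGACT in capitals.
TKTL1: cccattgaGGACTcacctgaa
PGD: gcctcttgGGACTgaccagga
TALDO1: ctgaggctGGACTccagatct
TKT: aacaatgaGGACTtccaggtc
The matches in PGD and TALDO1 lie in the 3' UTR, 200 and 19 bases past the end of the coding sequence. Those in TKTL1 and TKT lie within the coding sequence, at -993 and -414 bases from its end.

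TKTL1 sits on the distal long arm of chromosome X. Within 250 kb of the TKTL1 span, 16 other genes were tested (TEX28 left aside), of which 2 were higher and 5 were lower; 7 of 16 called compares with 37.8% of all genes. The median of their log2 fold changes was -0.21. FLNA, the filamin A gene and the next gene beyond the 3' end of TKTL1, fell by 0.52 (FDR 1.67e-05). LAGE3, UBL4A and RPL10 fell by 0.75, 0.45 and 0.28 (FDR 0.000211, 0.000299 and 0.0171). The spans of LAGE3 and RPL10 overlap other genes, and RPL10 lost its call when siMETTL3 replicate 2 or 3 was left out (FDR 0.0833 and 0.0611; range 0.000411 to 0.0833). Without siControl replicate 3, the highest RPL10 library, its log2 fold change was -0.17 (FDR 0.00808). The 4 opsin genes of the window had too few counts to be tested. No gene of the window other than TEX28 came near the log2 fold change of TKTL1.

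By Euclidean distance between log2 CPM profiles, taken as deviations from the siControl mean over the 6 libraries, the 5 genes closest to TKTL1 among 11763 genes were STC1 (distance 0.306), CARTPT (0.349), DYSF (0.470), SH3TC2 (0.471) and SP6 (0.626). Their log2 fold changes were 2.77, 2.61, 2.68, 2.95 and 2.44. They lie on chromosomes 8, 5, 2, 5 and 17, so none is a neighbour of TKTL1. STC1 encodes a secreted glycoprotein, CARTPT a neuropeptide precursor, DYSF dysferlin and SP6 a transcription factor. The measure mainly finds genes with a change of like size, so the list is a description.

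Around the pathway, genes that use its products or share its metabolites were read from lists. Each count is set against the 18.6% higher and 19.2% lower, 37.8% in all, over all tested genes. In purine synthesis, which starts from ribose 5-phosphate, 6 of 13 tested genes were lower and 0 were higher, or 46.2% called against 37.8% of all genes, and the median was -0.23 on the log2 scale. IMPDH2, which commits inosine monophosphate to guanine nucleotides, fell from 149 ± 3.93 to 94.5 ± 0.505 CPM (log2 fold change -0.65, FDR 1.09e-06). GART and PAICS, enzymes of the assembly of the purine ring, fell by 0.39 and 0.36 (FDR 7.71e-05 and 0.000196); the GART span overlaps SON. In pyrimidine synthesis 4 of 7 genes were lower and 0 were higher (57.1% called against 37.8%; median -0.20). TYMS, thymidylate synthase, fell by 0.48 (FDR 0.000260), and CTPS2 and UMPS fell by 0.24 and 0.21 (FDR 0.0111 and 0.00878). TYMS and CTPS2 overlap other genes, and UMPS was not past the threshold without siControl replicate 2 (FDR 0.0568; range 0.00117 to 0.0568). Without that library 2 of the 7 were lower.

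Between the branch point and these pathways stand the phosphoribosyl pyrophosphate synthetases (PRPS1 and PRPS2) and their associated proteins (PRPSAP1 and PRPSAP2). Of these 4 tested genes 1 was lower (25.0% against 37.8%): PRPS2 was at 42.9 ± 1.79 CPM in siControl and 36.6 ± 1.92 CPM in siMETTL3 (log2 fold change -0.23, FDR 0.0251). Leaving out siMETTL3 replicate 1, 2 or 3 ended this call (FDR 0.0543, 0.112 and 0.0502; range 0.0185 to 0.112). PRPS1 had a log2 fold change of -0.06 (FDR 0.512).

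In other pentose metabolism 2 of 13 tested genes were higher and 3 lower, and the 38.5% called is near the 37.8% of all genes. DCXR, which reduces xylulose, fell from 40.8 ± 1.92 to 24.5 ± 2.60 CPM (log2 fold change -0.74, FDR 2.91e-05). PGM2, a phosphopentomutase, and DERA, deoxyribose-phosphate aldolase, fell by 0.52 and 0.32 (FDR 0.000383 and 0.000440). FGGY, a carbohydrate kinase, rose by 0.43 (FDR 0.00102), as did KHK, fructokinase, by 0.45 (FDR 0.0146). KHK overlaps CGREF1 and lost its call when siMETTL3 replicate 3 was left out (FDR 0.0756; range 0.00978 to 0.0756).

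At the junction with glycolysis, 8 of 16 tested genes were higher and 4 were lower, or 75.0% called against 37.8% of all genes, and the median was 0.27 on the log2 scale. PFKFB4 and PFKFB3, which set the level of the allosteric activator of phosphofructokinase, rose from 16.5 ± 4.45 to 51.1 ± 2.22 CPM (log2 fold change 1.62, FDR 1.27e-05) and from 19.8 ± 3.10 to 35.3 ± 0.545 CPM (0.83, FDR 3.67e-05). ALDOC, an aldolase, rose by 0.91 (FDR 1.38e-05). PFKM, PFKFB2 and GAPDH fell by 0.41, 0.33 and 0.26 (FDR 5.45e-05, 0.00529 and 0.00262). The spans of PFKFB4, ALDOC, PFKM and PFKFB2 overlap other genes. With genes that overlap no other gene alone, 4 members were higher and 1 was lower.

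In a list of other genes of NADP and NADPH metabolism, 9 of 12 tested genes were lower and 0 were higher (75.0% called against 37.8%), with a median of -0.32. The list holds enzymes that make or can make NADPH, among them ME2 and MTHFD2, which mainly use NAD+, and also the NAD kinases and FDXR. Its count is therefore not a count of NADPH-making enzymes alone. FDXR, ferredoxin reductase, which uses NADPH to reduce ferredoxin, fell from 54.4 ± 2.99 to 31.1 ± 3.14 CPM (log2 fold change -0.81, FDR 7.97e-06). IDH1, cytosolic isocitrate dehydrogenase, and MTHFD2, of mitochondrial one-carbon metabolism, fell by 0.55 and 0.49 (FDR 1.74e-05 and 1.23e-05); MTHFD2 overlaps SLC4A5. ME1, cytosolic malic enzyme, measured 55.2 ± 2.89 and 56.6 ± 0.565 CPM (FDR 0.674).

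PGD, TALDO1 and TKT are known targets of the transcription factor NRF2, encoded by NFE2L2. Of 14 tested genes of an NRF2 list, 2 were higher and 4 were lower, with a median of -0.04, and the 42.9% called is near the 37.8% of all genes. SLC7A11, the cystine transporter subunit, fell from 61.6 ± 6.75 to 26.8 ± 0.487 CPM (log2 fold change -1.20, FDR 2.39e-07). TXNRD1, thioredoxin reductase, and KEAP1, the inhibitor of NRF2, fell by 0.22 and 0.27 (FDR 0.00582 and 0.00832). HMOX1, heme oxygenase, and ABCC1, a drug and glutathione conjugate exporter, rose by 0.47 and 0.31 (FDR 0.0111 and 0.0114). Left-out libraries ended several of these calls: KEAP1 (FDR 0.0570) and ABCC1 (FDR 0.0612) without siMETTL3 replicate 1, and HMOX1 (FDR 0.0672) without siMETTL3 replicate 3, each the highest FDR over its alternatives; the lowest were 7.42e-05, 0.000167 and 0.00897. Without siMETTL3 replicate 1 the list had 1 higher and 2 lower genes. NQO1, a classic NRF2 target, measured 14.4 ± 0.198 and 13.5 ± 0.494 CPM (FDR 0.466).

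Transketolase depends on thiamine diphosphate, and 2 of 4 tested genes of thiamine uptake and activation were lower, against 19.2% of all genes. SLC19A2, a thiamine transporter, fell from 58.1 ± 3.84 to 41.8 ± 1.12 CPM (log2 fold change -0.48, FDR 0.000151). Without siMETTL3 replicate 1, 1 gene of this list was lower.

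**Figure D4:**
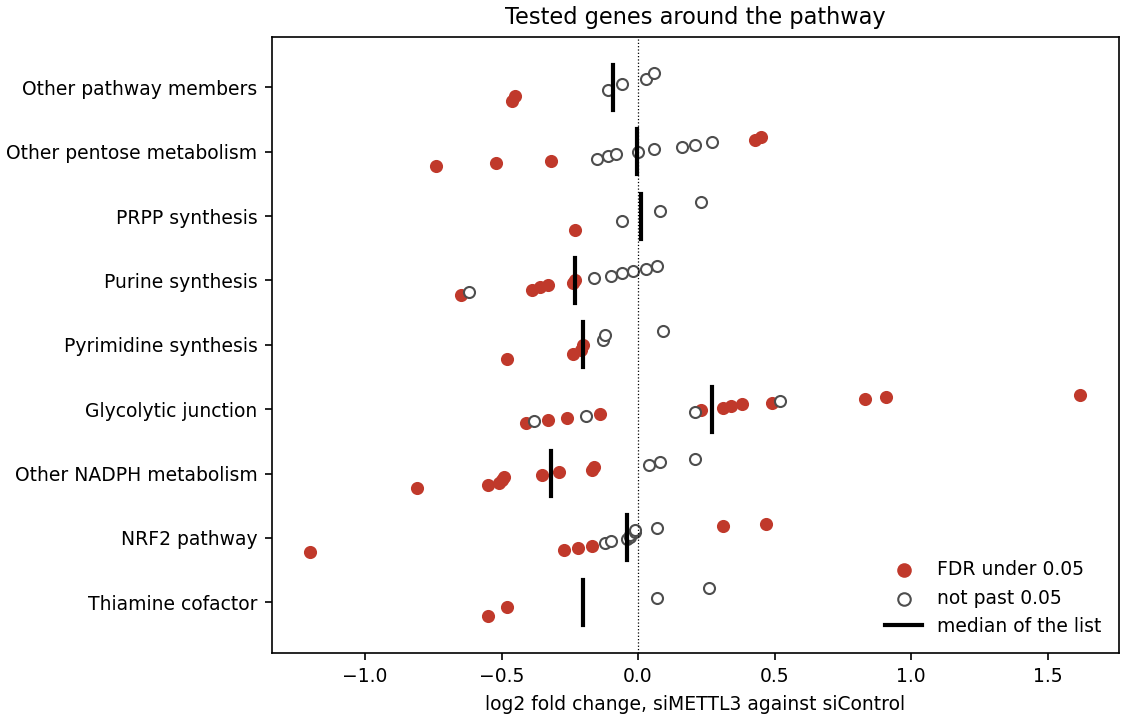
Log2 fold change of siMETTL3 against siControl (horizontal axis) for the tested genes of 9 lists (vertical axis); filled points are past an FDR of 0.05 and black ticks are list medians. The median is 0.27 for the glycolytic junction and between -0.32 and -0.20 for purine synthesis, pyrimidine synthesis, other NADPH metabolism and the thiamine cofactor.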

How the data were processed

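Raw read counts per gene were deposited by the authors, 1 table per library. Per the file headers, featureCounts (v1.5.3) counted reads over the protein-coding genes of GENCODE release 33. The counted feature was the whole gene with introns, a read over several genes counted for each, and no strand option was set; 33.1% of genes overlap another. Per the submitters' processing notes, HISAT2 2.1.0 and Trimmomatic 0.36 were used with GRCh38.

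Counts were filtered with filterByExpr (15311 genes kept), scaled by TMM and tested with edgeR 4.0.16 in R 4.3.3 (quasi-likelihood test, robust dispersions, 6 libraries, no covariate), after a test on simulated data. SE was taken as |log2 fold change| over the root of the F statistic. CPM uses TMM-scaled library sizes. DESeq2 1.42.0 and limma 3.58.1 were among the alternatives. Total counts of 15430000 to 21565013 set the precision.

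The members and lists were chosen with earlier results of these data known. Named genes are the 7 members, METTL3, H6PD, TKTL2, RPEL1, SHPK, RBKS, genes overlapping a member, up to 3 genes per direction with the smallest FDR in each of 10 lists, called genes within 250 kb of TKTL1, and the 5 genes most like it; others (PRPS1, ME1, NQO1, GAGE1) were added after their values were seen. Some genes that the rule names are not reported here. Transcripts came from GENCODE release 44 (95.3% of tested genes matched) and promoters from RefSeq (GRCh38.p14).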

Additional observations from a re-analysis of the deposited data

How the results depend on the processing

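PGD was lower and past the threshold under all 16 alternatives, and TKTL1 stayed between 2.68 and 2.93 (log2) in all 17, of which 1 was added after the data were seen. Leaving out each library in turn, the log2 fold changes ran from -0.53 to -0.34 for TALDO1, -0.13 to -0.09 for TKT, -0.17 to 0.03 for PGLS, and -0.02 to 0.07 for RPIA. PGLS changed sign without siMETTL3 replicate 3 (0.03), and RPIA without siControl replicate 2 (-0.02) and without siMETTL3 replicate 3 (-0.01), both far from the threshold. The members called lower then numbered 1 to 3. On genes that overlap no other gene, fewer genes are tested: 1853 were higher and 1898 lower over all genes, 7 genes of the lists were higher instead of 12, and 2 genes near TKTL1 were lower instead of 5. The scaling moved the median of all genes by at most about 0.02 (log2), and no member changed its call with it. Same-numbered libraries had correlations of 0.0401, 0.0494 and 0.0671 between their deviations from the group means. Differently numbered libraries had lower ones, from -0.0642 to 0.0263. All were small, and they do not settle whether the replicate numbers pair the libraries. With the replicate block, 6166 genes were called against 5786, and no member changed its call. Of the 41 called genes named by the rule, 10 lost the call in at least 1 alternative. Among the members, depth is lowest for TKTL1 in siControl (43 to 83 counts per library), and TEX28 had 0 to 34 counts.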

Other observations

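TKTL1 is known from the testis, and a list of other X-linked genes of the germline and of cancer-testis antigens was read beside it. Of 23 such genes other than TEX28, 8 had enough counts to be tested; 6 were lower and 0 were higher (75.0% called, against 37.8% of all tested genes), with a median log2 fold change of -0.33. MAGEA10 was at 99.00 ± 0.983 CPM in siControl and 82.8 ± 1.08 CPM in siMETTL3, a log2 difference of -0.26 (edgeR FDR 0.00233). MAGEA1 was at 68.1 ± 0.398 and 54.3 ± 3.83 CPM, a log2 difference of -0.33 (FDR 0.00176). CTAG2 was at 5.68 ± 1.61 and 3 ± 0.367 CPM (log2 difference -0.90, FDR 0.00551). GAGE1, whose span overlaps GAGE2A, measured 1.77 ± 0.658 and 2.84 ± 0.437 CPM (FDR 0.0602). MAGEA genes resemble each other closely, and reads may be split between them. Without siMETTL3 replicate 2, 3 genes of this list were lower, and 1 was higher without siControl replicate 3, with limma-voom and when each library had to hold 10 counts or more.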
